A study of Mus musculus with 8 samples.

Results

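The mitochondrial ribosomal protein genes were taken as all rows of the expression table whose symbol is Mrpl or Mrps followed by a number and, for some, a letter, which gave 78 of 28918 genes. By role, 51 encode proteins of the large subunit, 26 encode proteins of the small subunit, and 1, Mrps36, carries the name but belongs to another complex. Mrps18a and Mrps30 were counted with the large subunit, where their proteins sit. They were compared between subcutaneous tumors of B16-mhgp100, a mouse melanoma line that carries a gp100 antigen, grown in C57BL/6 mice either with Colq over-expression (3 tumors, 3 libraries) or with the vector alone (3 tumors, 5 libraries, as 2 of the tumors gave 2 portions each). Mice of both groups had been given anti-PD-1 antibody, at 200 µg per dose in 4 doses, 2 each week, starting on day 10. Tumors were collected 1 day after dosing ended, and none of the libraries used here comes from a tumor without the antibody. RNA-seq was made from poly-A RNA of bulk tumor, which holds melanoma cells together with host cells.

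The mitochondrial ribosome translates the few messenger RNAs that the mitochondrial genome encodes, all of them for subunits of the respiratory chain and of ATP synthase. Its RNAs are mitochondrially encoded, while its proteins are encoded in the nucleus, made in the cytosol and imported. Many of them descend from bacterial ribosomal proteins and the rest are found only in mitochondria. The small subunit reads the message and the large subunit forms the peptide bond, and excess proteins that are not built into a subunit are generally unstable. In tumors the set is often followed together with the respiratory chain as part of the program for oxidative metabolism.

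Values are transcript abundances scaled to a fixed library total (TPM) and differences are log2 fold changes, Colq minus vector, on the log2(TPM + 1) scale unless another scale is named. A gene was called higher or lower where its adjusted p was under 0.05 (limma, Benjamini-Hochberg over 13726 tested genes). Portions of a tumor were averaged, so each test set 3 tumors against 3. The 3 Colq libraries were taken as 3 tumors from the numbers in their labels. The depth of the libraries cannot be read from TPM and is unknown. In each library 19887 to 21602 genes had a value above 0.

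Colq itself had 4.31 ± 0.628 TPM in its own group and 0.122 ± 0.0575 TPM with the vector (SD, n = 3 each; log2 fold change 2.24; limma, adjusted p = 2.81e-05). Markers of cell types differed between the groups for some types and not for others. Their counts are read beside all tested genes, of which 11.3% rose and 59.6% fell. All 7 melanoma lineage markers were detected in Colq tumors, and 6 of them fell. Their summed level was 10949 to 11272 TPM in Colq libraries against 17604 to 22338 TPM in vector libraries. The median log2 fold change of the 7 was -1.06, and -0.51 on a scale with size factors, described below. All 8 skeletal muscle markers rose, from a summed 30.5 to 144 TPM in vector libraries to 733 to 753 TPM in Colq libraries. Of 6 macrophage markers 2 rose, with sums of 1196 to 1218 TPM against 316 to 700 TPM, and of 5 T cell markers 3 rose, with sums of 24.1 to 30.4 TPM against 9.91 to 20.9 TPM. Of 5 fibroblast markers 2 rose and 2 fell, with sums of 277 to 299 TPM against 163 to 311 TPM. Keratinocyte markers, of which 2 of 4 rose, summed to 26.2 to 27.7 TPM against 0.0 to 207 TPM, and the 4 red cell markers, none of them called, to 636 to 675 TPM against 558 to 3128 TPM. The sums of the groups overlapped for these 3 types. In bulk tumors, fewer cells of a type and less RNA per cell cannot be told apart. The part of these cell types in the results on mitochondrial ribosomal proteins was not tested.

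All 78 genes were detected in all 8 libraries, between 8.09 and 528.78 TPM, and all 78 passed the filter of a mean TPM of at least 1. More of them were higher than lower in Colq tumors, although most other genes went the other way. Of the 78, 34 (43.6%) rose, where 11.3% of all tested genes rose, and 17 (21.8%) fell, where 59.6% of all tested genes fell. The median log2 fold change was 0.14 over the 78 and -0.50 over all tested genes, and 73 of the 78 lay above the latter. The 3 Colq tumors lay wholly above the 3 vector tumors for 37 of the 78 (12.2% of all tested genes) and wholly below for 19 (62.4%). All 34 higher and all 17 lower calls were among these.

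**Figure D1:**
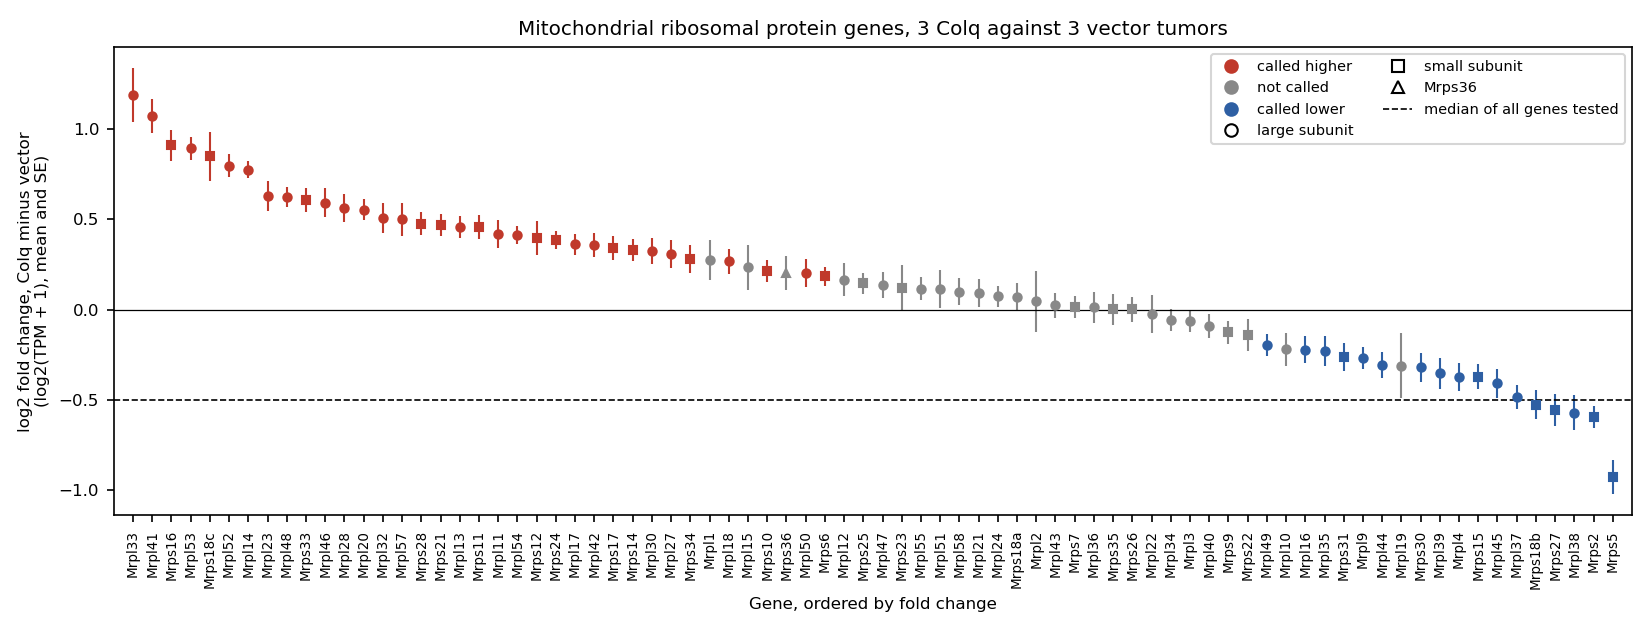
Log2 fold change (Colq minus vector, log2(TPM + 1)) of each of the 78 genes, ordered from high to low, with the SE from limma; red is called higher, blue called lower and grey not called, and the symbol gives the subunit. The values run from 1.19 for Mrpl33 to -0.93 for Mrps5, and most lie above the dashed line at -0.50, the median of all tested genes.

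Proteins of the large subunit held the largest rises. Of its 51 genes 21 (41.2%) rose and 11 (21.6%) fell (median 0.12), where 11.3% and 59.6% of all tested genes did. Mrpl33, a small protein with a bacterial counterpart, had 526.34, 528.78 and 527.25 TPM in the Colq libraries. With the vector, the portions of tumor 1 held 260.45 and 318.28 TPM, those of tumor 2 held 273.60 and 204.05 TPM, and tumor 3 held 181.78 TPM. Every Colq library was thus above every vector library, and the vector libraries were spread far more widely than the Colq libraries. The means were 527 ± 1.23 and 237 ± 53.8 TPM (SD, n = 3 each), a log2 fold change of 1.19 (SE 0.15; limma, adjusted p = 0.000278). Mrpl33 shares 107 exonic bases with the gene model Gm43809 on the same strand, but that model was listed at 0 in 6 of the libraries and at most at 6.20 TPM.

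Mrpl41, a protein found only in mitochondrial ribosomes, had 159.32, 151.02 and 163.77 TPM in the Colq libraries. Its vector libraries held 69.24 and 69.64 TPM for tumor 1, 77.20 and 62.14 TPM for tumor 2 and 86.35 TPM for tumor 3, all below the lowest Colq library. The log2 fold change was 1.07 (SE 0.094; limma, adjusted p = 5.67e-05). Mrpl53, also specific to mitochondria, had 257.49, 256.77 and 287.12 TPM in the Colq libraries and between 132.87 and 150.96 TPM in the vector libraries, a log2 fold change of 0.89. Mrpl52, likewise specific to mitochondria, had 391.27 to 404.46 TPM against 211.53 to 247.88 TPM, a log2 fold change of 0.80. Both showed no overlap between the groups, and the portions of a vector tumor were close together for both.

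Mrpl14, which holds the place on the large subunit where the assembly factor Malsu1 binds, had 230.96, 244.82 and 237.29 TPM in Colq libraries and 132.40 to 142.66 TPM in vector libraries (log2 fold change 0.77, SE 0.049; limma, adjusted p = 2.14e-05). Mrpl23, whose bacterial relative lines the exit of the peptide tunnel, had 142.35 to 174.96 TPM against 90.24 to 113.68 TPM, a log2 fold change of 0.63. The pseudogene Mrpl23-ps1 stood at 10.0 ± 1.76 against 4.45 ± 0.469 TPM (SD, n = 3 each; log2 fold change 1.05); reads of parent and copy may have been shared, which makes the value of both uncertain.

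The largest falls among large subunit genes were in proteins specific to mitochondria. Mrpl38, a protein of the central protuberance, stood at 30.25, 32.89 and 29.94 TPM in Colq libraries and at 37.70 to 51.30 TPM in vector libraries (log2 fold change -0.57, SE 0.096; limma, adjusted p = 0.00122). The groups did not overlap, although the second portion of vector tumor 2, at 37.70 TPM, came near to the Colq libraries. Mrpl37 had 34.09 to 37.84 TPM against 46.18 to 53.78 TPM, a log2 fold change of -0.48. Mrpl45, which anchors the large subunit to the inner membrane near the tunnel exit, had 19.34 to 21.78 TPM against 24.82 to 29.02 TPM, a log2 fold change of -0.41. All 3 lay near or above -0.50, the median of all tested genes.

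The proteins of the stalk region, which recruits the translation factors, gave different calls on different scales. As deposited, Mrpl11, at the stalk base, rose, with 52.34 to 55.96 TPM in Colq libraries and 34.90 to 44.43 TPM in vector libraries (log2 fold change 0.42; limma, adjusted p = 0.00225). Mrpl12, the stalk protein proper, had 149 ± 5.62 against 133 ± 16.5 TPM (log2 fold change 0.17; limma, adjusted p = 0.145) and was called higher without vector tumor 3 (0.25; adjusted p = 0.0182). Mrpl10, which carries Mrpl12 on the ribosome, had 34.8 ± 2.55 against 40.7 ± 3.77 TPM (log2 fold change -0.22; limma, adjusted p = 0.064) and was called lower without vector tumor 1 (-0.29; adjusted p = 0.0233). Mrpl58, a peptidyl-tRNA hydrolase built into the large subunit, had 127 ± 4.31 against 119 ± 9.87 TPM (log2 fold change 0.10; limma, adjusted p = 0.265). As deposited only Mrpl11 of these 4 genes passed the test on all 6 tumors. After size factors all 4 were called higher, Mrpl11 at 0.95, Mrpl12 at 0.71, Mrpl58 at 0.64 and Mrpl10 at 0.31. On a scale without the length and GC trend, described below, Mrpl11 (0.74), Mrpl58 (0.59) and Mrpl12 (0.32) were called higher and Mrpl10 (-0.13) was not called.

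Of the 26 small subunit genes 13 rose and 6 fell (median log2 fold change 0.17). The 16 with bacterial counterparts held 11 rises and 3 falls (median 0.34), and the 10 specific to mitochondria held 2 rises and 3 falls (median 0.00). In the large subunit the same classes had 12 rises and 4 falls of 30 (median 0.15) and 9 rises and 7 falls of 21 (median 0.10). Over both subunits 23 of 46 genes with bacterial counterparts rose and 7 fell (median 0.22), and 11 of 31 genes specific to mitochondria rose and 10 fell (median 0.07). With the length and GC trend removed, the small subunit medians were 0.23 for both classes. The 16 then held 9 rises and 2 falls, and the 10 held 5 rises and 2 falls. Over both subunits the medians were then 0.30 and 0.21. The classes also differ in transcript length, with a median of 1112.75 bases for the first and 1424 bases for the second. The difference between the classes was not tested.

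Mrps16, which small subunit assembly requires, had the largest rise of the small subunit, at 53.65, 46.97 and 51.60 TPM in Colq libraries. Its vector libraries held 25.12 and 23.60 TPM for tumor 1, 30.22 and 23.92 TPM for tumor 2 and 28.47 TPM for tumor 3, so every Colq library was above every vector library. The log2 fold change was 0.91 (SE 0.085; limma, adjusted p = 7.16e-05). Mrps5, whose bacterial relative bears on the accuracy of decoding, had the largest fall of all 78 genes. It stood at 33.14, 25.97 and 30.65 TPM in Colq libraries and at 57.79, 59.24, 59.53, 55.79 and 56.51 TPM in vector libraries, where all 5 values lay close together. The log2 fold change was -0.93 (SE 0.093; limma, adjusted p = 0.000101).

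Mrps2, another protein with a bacterial counterpart, fell from 42.30 to 46.38 TPM in vector libraries to 28.81 to 29.93 TPM in Colq libraries (log2 fold change -0.60; limma, adjusted p = 0.000114). Mrps27, a pentatricopeptide repeat protein specific to mitochondria, had 17.29 to 20.31 TPM in Colq libraries against 24.94 to 29.84 TPM, a log2 fold change of -0.56. Mrps15 had 57.62 to 62.19 TPM against 70.98 to 83.87 TPM, a log2 fold change of -0.37. None of these 3 genes had overlapping groups.

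**Figure D2:**
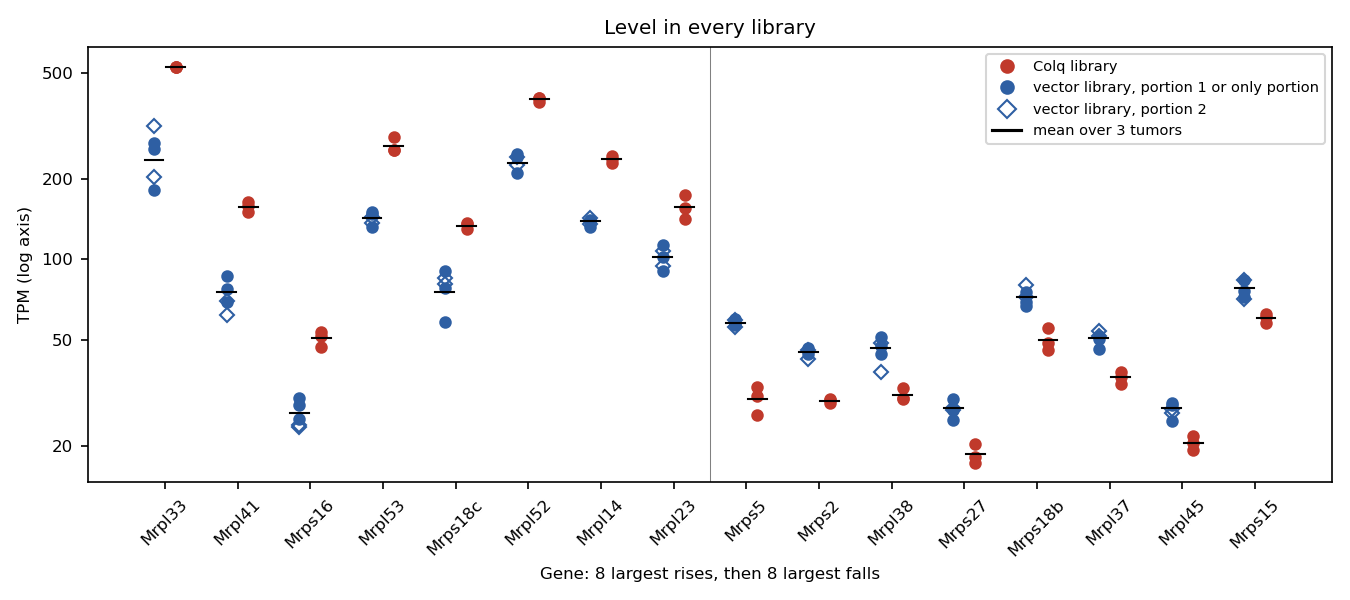
TPM on a log axis in every library for the 8 called genes with the largest rises and the 8 with the largest falls; red points are Colq libraries, blue filled points are first or only portions of vector tumors, open diamonds are second portions, and bars are means over 3 tumors. The 16 were picked among called genes whose tumors do not overlap between the groups, so that separation is part of the choice. No Colq library overlaps a vector library in any of the 16 genes. Mrpl33 shows the widest spread among vector libraries of the rising genes, from 181.78 to 318.28 TPM.

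As deposited, the Mrps18 family gave 3 separate patterns. Mrps18c is the direct relative of the bacterial protein in the small subunit, Mrps18b is a small subunit protein of its own place, and Mrps18a is part of the large subunit. Mrps18c stood at 136.83, 136.15 and 130.05 TPM in Colq libraries and at 58.46 to 90.39 TPM in vector libraries (log2 fold change 0.85, SE 0.14; limma, adjusted p = 0.000995). Mrps18b went the other way, with 45.72, 55.27 and 48.61 TPM in Colq libraries and 66.63 to 80.37 TPM in vector libraries (log2 fold change -0.53, SE 0.081; limma, adjusted p = 0.000783). Mrps18a had 60.75 to 68.37 TPM against 56.17 to 67.04 TPM, with overlapping groups (log2 fold change 0.07; limma, adjusted p = 0.449). The ratio of Mrps18c to Mrps18b was 2.99, 2.46 and 2.68 in the Colq tumors and 1.11, 1.16 and 0.845 in the vector tumors. It was 2.61-fold higher in Colq tumors, and p was 0.1 by an exact two-sided permutation test, the smallest value possible with 3 tumors in each group. This ratio is the same under any scaling of a whole library, while values of Mrps18a and Mrps18b on other scales are given below.

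Mrps36, known also as a component of the 2-oxoglutarate dehydrogenase complex rather than of the ribosome, had 106 ± 9.42 TPM with Colq and 92.4 ± 8.98 TPM with the vector (SD, n = 3 each). The groups overlapped and the difference did not pass the test (log2 fold change 0.20; limma, adjusted p = 0.0856), though it did without vector tumor 3 (0.28; adjusted p = 0.0242). Mrps36 was called higher after size factors (0.74; limma, adjusted p = 0.00105) and was not called with the length and GC trend removed (-0.18; adjusted p = 0.231).

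The promoters of 6 genes that moved in opposite directions are shown as the 100 bases before the annotated start, 5′ to 3′, from RefSeq on GRCm38.p6, a build older than the authors' mm39. They belong to the 2 genes of largest rise, the 2 of largest fall and the Mrps18 pair that parted. Capitals mark matches on either strand to the letters searched, which were CCGGAAG for ETS factors, GCGCATGC for NRF1, ATGGCGG for YY1, CACGTG for the E-box and CCAAT for the CCAAT box. The first 3 factors are textbook regulators of nuclear genes for mitochondria.
Mrpl33, higher (chr5:31613851-31613950, plus strand): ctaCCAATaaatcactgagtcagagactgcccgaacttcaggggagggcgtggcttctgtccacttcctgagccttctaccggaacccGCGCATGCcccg
Mrpl41, higher (chr2:24975099-24975198, minus strand): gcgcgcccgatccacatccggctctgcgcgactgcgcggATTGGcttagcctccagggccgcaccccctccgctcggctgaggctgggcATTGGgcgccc
Mrps18c, higher (chr5:100798659-100798758, plus strand): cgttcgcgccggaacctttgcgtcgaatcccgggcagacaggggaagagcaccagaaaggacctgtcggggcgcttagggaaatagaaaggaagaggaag
Mrps5, lower (chr2:127587326-127587425, plus strand): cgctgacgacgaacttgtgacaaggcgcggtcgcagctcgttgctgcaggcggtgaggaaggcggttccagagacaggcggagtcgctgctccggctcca
Mrps2, lower (chr2:28467966-28468065, plus strand): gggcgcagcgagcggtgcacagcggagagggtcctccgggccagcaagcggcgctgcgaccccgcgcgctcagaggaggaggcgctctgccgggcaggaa
Mrps18b, lower (chr17:35916441-35916540, minus strand): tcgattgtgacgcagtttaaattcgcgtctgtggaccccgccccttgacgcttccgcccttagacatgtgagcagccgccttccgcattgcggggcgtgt
Mrpl33 holds 1 NRF1 and 1 CCAAT match in this window and Mrpl41 holds CCAAT matches alone, while the other 4 windows hold none of the letters searched.

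Promoter windows of 300 bases, from 250 before to 50 after the start, were matched for 69 of the 78 genes. The ETS letters were in 36.2% of these windows, in 18.7% of the 10085 windows of tested genes and in 9.12% of all 27025 windows. NRF1 letters were in 11.6%, 5.56% and 2.80%, and YY1 letters in 18.8%, 8.46% and 4.19%. CACGTG was in 7.25%, 10.2% and 7.24%, and CCAAT in 39.1%, 38.9% and 37.9%. Within the 69, the ETS letters were in 12 of 30 windows of genes called higher, 2 of 15 of genes called lower and 11 of 24 of genes not called. In the 100 bases before the start they were in 4, 1 and 9 of these windows. The NRF1 letters were in 3, 3 and 2 of the windows of 300 bases and the YY1 letters in 4, 7 and 2. The YY1 letters were in 0 of 69 windows when only the 100 bases before the start were searched, so those matches lie elsewhere in the 300 bases. These are matches of letters and were not tested against the calls.

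Mrpl46 and Mrps11 are the only 2 of the 78 whose genes lie within 2000 bases of each other in the GRCm38 annotation. They stand on opposite strands with 412 bases between their starts, and both rose, by 0.59 and 0.46. The libraries carry no strand, so reads of overlapping genes on opposite strands were not told apart. Such an overlap of exons with another tested gene was found for 15 of the 78 genes. On either strand, at least 10% of a gene's exonic bases were shared for 9 genes, of which 3 were called higher (Mrpl13, Mrpl33 and Mrps6), 1 lower (Mrps30) and 5 neither. Mrps25 shared most, 58.2% with Nr2c2, and the values of these genes are uncertain to that extent.

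Between genes, levels spanned a 38.1-fold range of mean TPM, a scale that divides by transcript length. Mrps21 was the most abundant, with 464 ± 8.12 TPM against 336 ± 24.0 TPM (SD, n = 3 each; log2 fold change 0.47). Mrpl33 and Mrpl52 followed. The least abundant was Mrpl1, which forms the mobile stalk at the exit site for transfer RNA. It stood at 11.6 ± 0.682 against 9.44 ± 1.17 TPM (log2 fold change 0.28; limma, adjusted p = 0.0545). Mrpl1 was called higher after size factors (0.77; limma, adjusted p = 0.00118) and with the length and GC trend removed (0.74; adjusted p = 0.00314). Next were Mrps30, with 16.1 ± 0.978 against 20.4 ± 0.903 TPM (log2 fold change -0.32), and Mrps31, with 17.6 ± 0.423 against 21.3 ± 1.51 TPM (-0.26; limma, adjusted p = 0.0188). The call on Mrps31 was lost without Colq tumor 1 (adjusted p = 0.0523) or Colq tumor 2 (0.0628). Genes that rose were the more abundant: their median level was 103 TPM, against 37.3 TPM for those that fell and 73.6 TPM for those not called. Spearman's rho between mean level and fold change was 0.59 across the 78 genes as deposited and 0.21 with the length and GC trend removed; the genes share libraries and are not replicates.

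Summed over the 78 genes, the level was 8301, 8311 and 8401 TPM in the Colq tumors and 6783, 6500 and 6640 TPM in the vector tumors, so that the groups were apart. The means, 8338 ± 55.3 and 6641 ± 142 TPM (SD, n = 3 each), gave a ratio of 1.26 (exact two-sided permutation p = 0.1, the smallest possible). The sum over large subunit genes was 5668 ± 39.4 against 4385 ± 94.3 TPM (1.29-fold) and that over small subunit genes 2564 ± 16.4 against 2164 ± 45.5 TPM (1.18-fold), each with the same p. The ratio of the large to the small sum was 2.22, 2.19 and 2.22 in Colq tumors and 2.02, 2.02 and 2.04 in vector tumors (exact permutation p = 0.1). Without Mrpl33 it was 2.00 ± 0.017 against 1.92 ± 0.0357, with groups still apart but nearer, at 1.99 for the lowest Colq tumor and 1.96 for the highest vector tumor.

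A large part of the summed difference came from few genes, although 52 of the 78 had a positive difference. Without Mrpl33 the ratio of the sums was 1.22. Of the net difference of 1697 TPM, Mrpl33 made up 17.1%, Mrpl52 9.97%, Mrps21 7.53%, Mrpl53 7.29%, Mrpl14 5.84% and Mrpl41 4.88%, together 52.7%. The median level over the 78 genes differed less, at 74.5 ± 0.871 TPM against 70.6 ± 1.98 TPM. Some other gene sets differed more in sum. The 13 mitochondrially encoded proteins, which mitochondrial ribosomes make, were 1.72-fold higher, nuclear respiratory chain genes 1.55-fold and cytosolic ribosomal protein genes 1.47-fold (exact permutation p = 0.1 for each). The mitochondrial ribosomal proteins came to 4.10 ± 0.0782% of the cytosolic ones in Colq tumors and to 4.82 ± 0.227% in vector tumors. Against nuclear respiratory chain genes they came to 15.3 ± 0.287% and 18.9 ± 0.334%, and against mitochondrially encoded proteins to 10.9 ± 0.495% and 15.1 ± 2.08%. Each of these 3 ratios was lower in all 3 Colq tumors than in any vector tumor (exact permutation p = 0.1).

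The counts of rises and falls depend on the scale, because the median of all tested genes lies well below 0 as deposited. Median-of-ratios size factors moved that median by 0.47. On that scale 66 of the 78 genes rose (26.5% of all tested genes) and 1 fell (27.4%), and the median log2 fold change was 0.67 against -0.03 for all tested genes. All 34 genes higher as deposited stayed higher. Of the 17 lower genes, 6 (Mrpl9, Mrpl16, Mrpl35, Mrpl44, Mrpl49 and Mrps31) were called higher after size factors, 10 were not called, and only Mrps5 was still lower (-0.40; limma, adjusted p = 0.0141). As deposited, the calls on Mrpl16, Mrpl35 and Mrpl49 were also lost when some single tumors were left out, Colq tumor 3 among them for each (limma, adjusted p = 0.0625, 0.098 and 0.0635). After size factors the summed level of the 78 genes was 10014 ± 261 against 5465 ± 258, a ratio of 1.83. The distance between the 78 genes and all tested genes was similar on both scales, 0.64 as deposited and 0.70 after size factors. Size factors divide all values of a tumor by the same number and so move nearly all genes alike. The similar distance, and that higher genes stayed higher, follow from this and are no separate evidence.

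A further scale removed the trend of fold change on transcript length and GC content. On it 40 of the 78 genes rose (17.3% of 13211 genes with a length) and 8 fell (26.3%), with medians of 0.22 and -0.08, a distance of 0.29. Of the 34 genes higher as deposited, 27 were called higher on this scale too. The 7 others were Mrpl20, Mrpl27, Mrpl30, Mrpl42, Mrps6, Mrps17 and Mrps21. Of the 17 lower genes, 7 were again called lower (Mrpl16, Mrpl37, Mrpl38, Mrps2, Mrps15, Mrps18b and Mrps31), 9 were not called and Mrpl35 was called higher. Mrps5 was at -0.18 on this scale (limma, adjusted p = 0.192). Mrpl34, with 87.8 ± 4.43 against 91.5 ± 2.06 TPM as deposited (log2 fold change -0.06), was called higher after size factors (0.48) and lower with the length and GC trend removed (-0.29). Mrps18b was at 0.01 after size factors (limma, adjusted p = 0.939) and at -0.62 with the trend removed (adjusted p = 0.000985), while Mrps18c was higher on all 3 scales. Mrps18a was called higher after size factors (0.61; limma, adjusted p = 0.00157) and was not called with the trend removed (-0.07; adjusted p = 0.463).

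**Figure D3:**
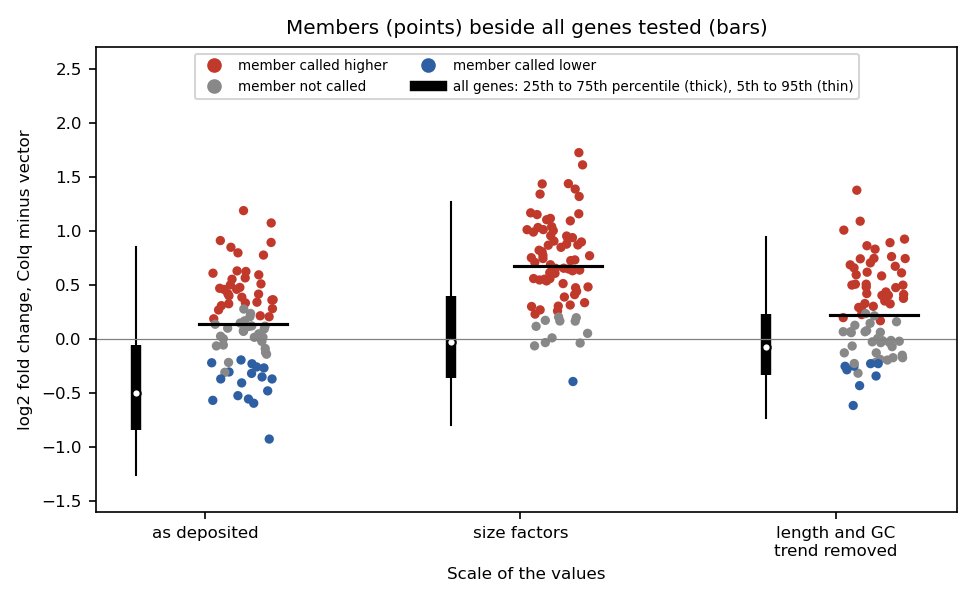
Log2 fold change (Colq minus vector) of the 78 genes, as points coloured by call, on 3 scales, with the median of the 78 as a horizontal bar; to the left of each, the thick and thin black bars give the range from the 25th to the 75th and from the 5th to the 95th percentile of all tested genes and the white point their median. The median of the 78 lies above that of all tested genes by 0.64, 0.70 and 0.29.

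Transcript length went with fold change both among the 78 genes and among all genes. The 78 have a median length of 1224.5 bases, against 2504 bases over tested genes, and Spearman's rho between length and fold change was -0.43 across the 78 and -0.59 across 13211 tested genes. With the trend of all genes removed it was 0.33 across the 78. All 4 genes under 600 bases rose, where 39.8% of all tested genes of that length rose and 8.84% fell. Of the 17 from 600 to 800 bases 11 rose and 0 fell, where 41.9% and 13.1% of all tested genes of that length did. Of the 20 from 2000 bases 5 rose and 6 fell, where 3.55% and 77.5% of all tested genes of that length did. Under 600 bases the median was 0.67 beside 0.47 for all tested genes of that length. From 600 to 800 bases the medians were 0.36 and 0.21, from 800 to 1000 bases 0.18 (9 genes) and 0.12, and from 1000 to 1500 bases 0.02 (19 genes) and -0.14. From 1500 to 2000 bases they were 0.01 (9 genes) and -0.34, and from 2000 bases 0.05 and -0.71. The 78 genes thus stood above others of their length in every bin, most among the long ones; bins of under 20 genes are thinly filled. Mrps16, with a transcript of 2572 bases, rose by 0.91, and Mrps5, with 4481 bases, fell by 0.93. Short genes were also the more abundant (Spearman's rho between length and mean TPM -0.57), so length and level cannot be told apart by these values.

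**Figure D4:**
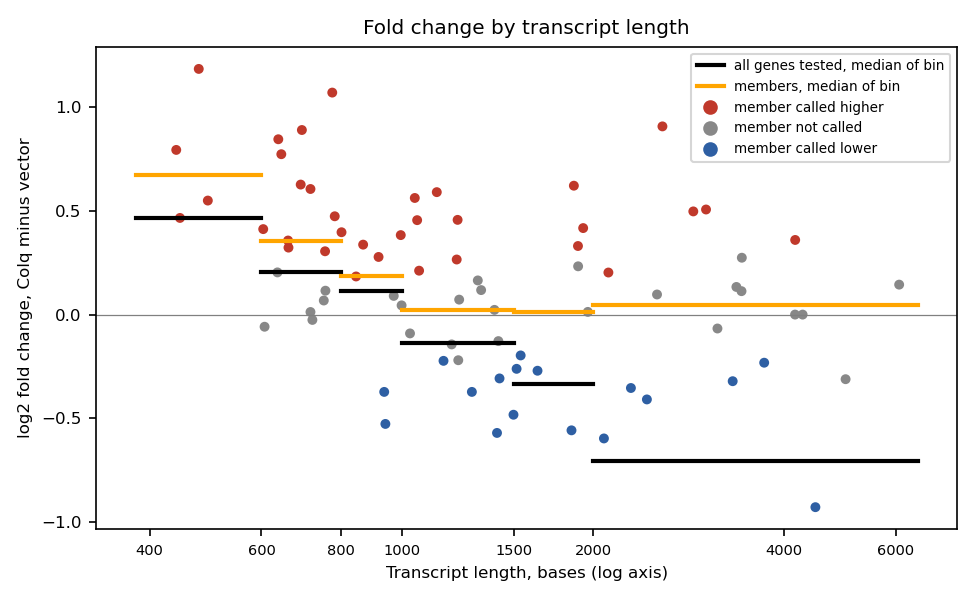
Log2 fold change (Colq minus vector, log2(TPM + 1)) of the 78 genes against transcript length on a log axis, coloured by call; black bars give the median of all tested genes in each length bin and orange bars that of the 78. The black medians run from 0.47 under 600 bases to -0.71 from 2000 bases, and the orange ones from 0.67 to 0.05.

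Replicates were close, though that the Colq libraries come from separate tumors rests on their numbers alone. The median SD over the 78 genes was 0.055 on the log2 scale among Colq tumors and 0.09 among vector tumors (0.094 and 0.141 over all tested genes), and 55 of the 78 varied less among Colq tumors. Portions of a vector tumor differed by a median of 0.11 in tumor 1 and 0.133 in tumor 2, in size on the log2 scale. A few genes differed more between portions. Mrpl47 stood at 22.92 and 43.51 TPM and Mrps23 at 118.69 and 183.97 TPM in the portions of vector tumor 1. Mrpl2, a protein next to the site of peptide bond formation, fell between portions in both tumors, from 145.50 to 98.57 TPM in tumor 1 and from 147.65 to 81.66 TPM in tumor 2, while Colq libraries held 88.54 to 130.29 TPM. None of these 3 genes was called as deposited, and for each the spread within the vector group covered all Colq libraries.

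The other genes of mitochondrial gene expression were then set beside the ribosomal proteins. Proteins of the mitochondrial ribosome with other symbols split evenly, as 2 of 5 rose and 2 fell (median -0.05). Of all tested genes 11.3% rose and 59.6% fell. Chchd1 rose by 1.08 and Aurkaip1 by 0.28, while Ptcd3, a pentatricopeptide repeat protein, fell by 0.52 and Dap3, a GTP-binding protein also named for a role in cell death, fell by 0.42. After size factors Ptcd3 and Dap3 were at 0.02 and 0.11 and neither was called. The call on Aurkaip1 was lost with second portions (limma, adjusted p = 0.0538) and with the Colq libraries counted as 1 sample (0.0734), and that on Ptcd3 with the latter (0.0546).

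Factors that build or serve the ribosome are read against all tested genes, of which 11.3% rose and 59.6% fell as deposited, with a median of -0.50. Of 25 assembly genes 1 (4.00%) rose and 14 (56.0%) fell (median -0.34), a share of falls near that of all tested genes. Among those that fell were the RNA helicase Dhx30 (-1.14), the GTPase Noa1 (-0.64), the pseudouridine synthase Rpusd4 (-0.55) and the ribosomal RNA methyltransferase Mrm3 (-0.72). The 1 that rose was Malsu1, at 35.9 ± 0.805 against 30.5 ± 2.94 TPM (0.24), named after its value was seen. After size factors 8 (32.0%) of the 25 rose and 1 (4.00%) fell (median 0.11), where 26.5% and 27.4% of all tested genes did. Of 15 translation factors 1 (6.67%) rose and 9 (60.0%) fell (median -0.42), again near the share of all tested genes, with the elongation factor Gfm1 at -1.08, the ribosome release factor Gfm2 at -0.82, the messenger RNA stabilizer Lrpprc at -1.30 and the membrane insertase Oxa1l at -0.67. The 1 that rose was Slirp, the binding partner of Lrpprc, by 0.63, also named after its value was seen. After size factors 2 of the 15 rose and 3 fell, where 26.5% and 27.4% of all tested genes did.

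Of 23 genes for charging mitochondrial transfer RNA 0 rose and 19 (82.6%) fell (limma, median -0.57), where 11.3% and 59.6% of all tested genes did. With size factors 1 (4.35%) rose and 7 (30.4%) fell, where 26.5% and 27.4% of all tested genes did. Kars stood at 114 ± 3.02 against 229 ± 18.7 TPM and Gars at 126 ± 3.57 against 250 ± 13.5 TPM (SD, n = 3 each; log2 fold changes -0.99 and -0.98), and both also serve the cytosol. Iars2 and Tars2, for mitochondria alone, fell by 1.01 and 0.99. Of 10 genes that maintain and transcribe mitochondrial DNA 3 rose and 5 fell (median -0.49), where 59.6% of all tested genes fell. The DNA polymerase Polg fell by 0.70, the topoisomerase Top1mt by 0.77, the helicase Twnk by 0.75 and the nuclease Mgme1 by 0.70. The 3 that rose, named after their values were seen, were Tfam (0.355), Tefm (0.33) and Ssbp1 (0.24). With size factors 3 of the 10 rose and 2 fell (median -0.0044), where 26.5% and 27.4% of all tested genes did. Polg and Top1mt were still lower on that scale, and Twnk and Mgme1 were not called (limma, adjusted p = 0.0525 and 0.0662). With the length and GC trend removed Polg was called higher (0.34).

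All 13 mitochondrially encoded proteins rose (median 0.75), where 11.3% of all tested genes rose. Among them mt-Nd1 stood at 6960 ± 98.5 against 3940 ± 336 TPM, and mt-Co1 rose by 0.87, mt-Nd2 by 0.67 and mt-Nd3 by 2.15. All 13 also rose after size factors (26.5% of all tested genes), and 7 of 13 did with the length and GC trend removed (17.3%). Of 23 import genes 12 (52.2%) rose and 6 (26.1%) fell (median 0.13), where 11.3% and 59.6% of all tested genes did. The small chaperone Timm8b stood at 445 ± 13.1 against 214 ± 5.78 TPM (1.05) and the pore subunit Tomm7 rose by 0.90, while the matrix chaperone Hspa9 stood at 123 ± 0.927 against 253 ± 8.49 TPM (-1.03) and the receptor Tomm70a fell by 0.67. Of 9 regulators of nuclear genes for mitochondria 1 (11.1%) rose and 8 (88.9%) fell (median -0.89), where 11.3% and 59.6% of all tested genes did. Myc stood at 55.3 ± 1.22 against 152 ± 7.34 TPM (-1.44), Pprc1 fell by 1.23, Yy1 by 0.97 and Nrf1 by 0.89, and Esrra, named after its value was seen, rose by 0.37. After size factors 6 of the 9 fell (27.4% of all tested genes), and with the length and GC trend removed 4 did (26.3%). The lists differ in transcript length, from a median of 784 bases for mitochondrially encoded proteins to 3493 bases for the regulators, and the differences between lists were not tested.

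**Figure D5:**
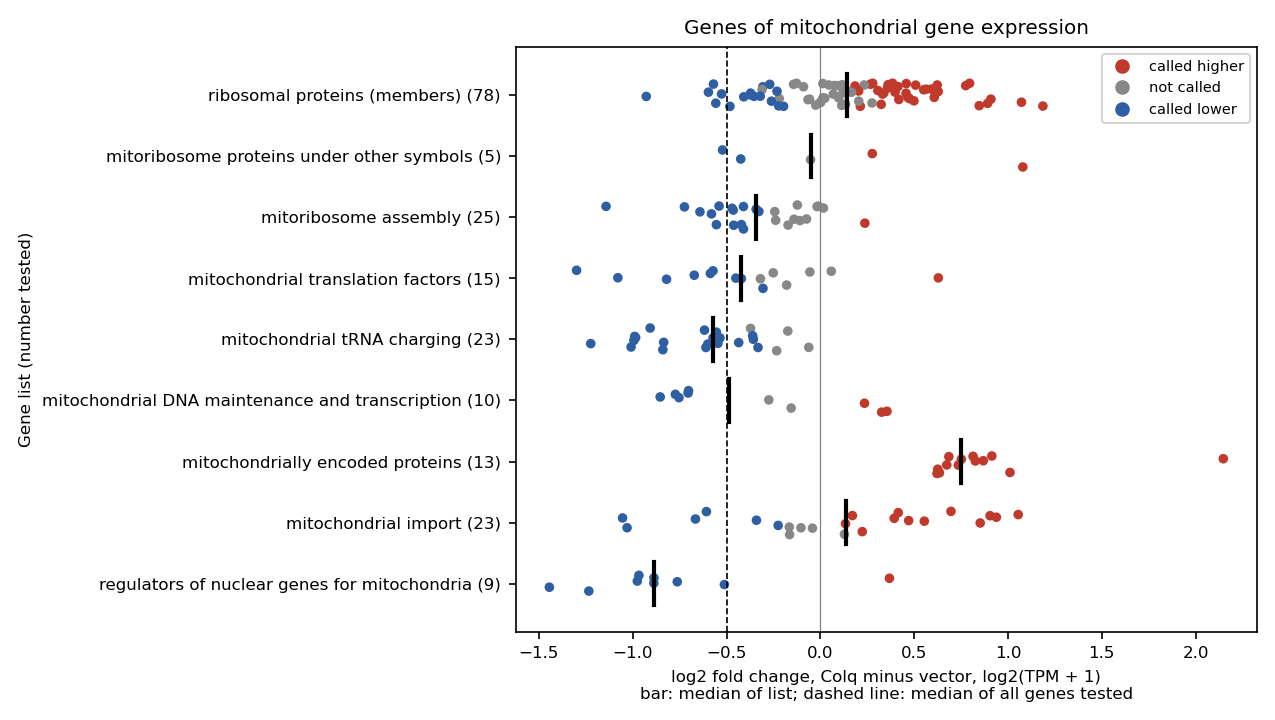
Log2 fold change (Colq minus vector, log2(TPM + 1)) of each tested gene in the ribosomal protein set and in 8 other lists of mitochondrial gene expression, coloured by call; bars are list medians and the dashed line is the median of all tested genes, -0.50. Medians run from 0.75 for the mitochondrially encoded proteins and 0.14 for the ribosomal proteins to -0.89 for the regulators.

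In the authors' deposited table, which compares the same groups and in which a positive value was taken as higher with Colq from that gene's own value (5.48), all 78 genes were matched. There 64 were higher and 1 lower at an adjusted p under 0.05, beside 20.1% and 20.4% of the 19153 genes with an adjusted p. The median log2 fold change of the 78 in the authors' deposited table was 0.70. All 34 genes called higher here are among its higher genes, and of the 17 called lower here 1, Mrps5, is lower there (-0.40; adjusted p = 0.00629) and 4 are higher. In the authors' deposited table Mrpl33 is at 1.71, Mrpl41 at 1.62, Mrps18c at 1.38, Mrps18a at 0.62 and Mrps18b at 0.02 (adjusted p = 0.942).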

How the data were processed

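The deposited expression table holds log2(TPM + 1) per gene, per the values themselves. RSEM and the build mm39 are named in the submitters' processing notes, and for the aligner and annotation the sources used here give no name. Libraries were not strand-specific, per the labels' protocols. The authors' deposited comparison holds log2 fold changes and adjusted p-values from DESeq2, per the submitters' processing notes; no source used here states which libraries entered it. Groups and tumors came from the sample labels, which number the tumors but name no mice, so p-values measure the spread between tumors. The members and gene lists were chosen with earlier results of these data known.

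Portions were averaged per tumor, on the log2 scale for tests and as TPM for levels and sums. The filter for testing, with limma 3.58.1 (R 4.3.3; eBayes with trend, pseudocount 1, Benjamini-Hochberg), was a mean TPM of 1 over tumors. Sums and ratios had an exact permutation test over tumors. Alternatives were pseudocounts of 0.1 and 0.5, no filter or a mean TPM of 5, other treatments of portions, size factors, rescaling, a replicate block, Colq libraries as 1 sample, leaving out each tumor, and loess removal (span 0.5) of the trend on length and GC content, from GRCm38 transcripts that cover 96.2% of tested genes. Named genes were the 8 largest called changes per direction among genes whose groups do not overlap, and the 3 highest and 3 lowest levels. Also named were the Mrps18 family, Mrps36, the stalk genes and genes with opposite calls on 2 scales. Of each list, up to 4 genes were named by smallest p. On simulated data for 13726 genes, of which 200 were changed, recovery was 82% at a log2 change of 1 and 94% at 2. There 7 calls were false. In the tumors far more genes were called and most members changed by less than 1, so these rates do not carry over to the calls. Promoters came from RefSeq.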

Additional observations from a re-analysis of the deposited data

How the results depend on the processing

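The count of 34 members higher was between 33 and 37 with pseudocounts of 0.1 and 0.5, no filter, a mean TPM of at least 5, rescaling and other treatments of the portions, and the count of 17 members lower between 14 and 17. Size factors gave 66 and 1, removal of the length and GC trend 40 and 8, and counting the Colq libraries as 1 sample, which leaves fewer samples, 25 and 6. Leaving out each tumor gave 31 to 36 members higher and 14 to 19 members lower. The median log2 fold change of members was 0.67 after size factors, 0.19 after rescaling without mitochondrially encoded, immunoglobulin and haemoglobin genes, 0.18 with first portions, 0.22 with the trend removed and 0.13 to 0.18 without each tumor; causes were not tested. The Colq to vector ratio of summed TPM was 1.24 to 1.27 without each tumor. Over portions and left-out tumors, settings added after the data were seen, the fold of the large to small ratio was 1.07 to 1.11 and that of Mrps18c to Mrps18b 2.38 to 2.77.

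Over all 78 members, 53 log2 fold changes were above 0 as deposited and 74 after size factors. Among named genes these turned sign after size factors: Mrps18b 0.0083, Mrpl37 0.0503, Mrpl45 0.12, Mrps15 0.16, Mrps30 0.20, Mrps31 0.26, Mrpl10 0.31, Mrpl34 0.48, Mrpl49 0.33, Mrpl16 0.30, Mrpl35 0.30, Mrpl9 0.27, Mrpl44 0.23, Dap3 0.11 and Ptcd3 0.0155. With the trend removed these did: Mrpl45 0.0652, Mrps21 -0.018, Mrps30 0.21, Mrps18a -0.0728, Mrps36 -0.18, Mrpl35 0.35, Polg 0.34 and Tomm70a 0.0646. The calls on Mrpl16, Mrpl35, Mrpl49 and Mrps31 were lost when some single tumors were left out (limma, adjusted p = 0.0523 to 0.105). Counting the Colq libraries as 1 sample ended the calls on 10 named members (Mrpl9, Mrpl11, Mrpl16, Mrpl35, Mrpl44, Mrpl45, Mrpl49, Mrps15, Mrps30 and Mrps31; adjusted p = 0.0518 to 0.237). Same-numbered tumors share only a number: their deviations correlated at 0.030, 0.007 and 0.044. With the replicate block, 34 members were higher and 16 lower; of the named members Mrpl16 and Mrpl49 were then not called (limma, adjusted p = 0.0652 and 0.0631) and Mrps36 was (0.0302). The files give no depth, which leaves the spread over tumors as the measure of precision.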
